A study of Mus musculus with 10 samples.

Results

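Notch receptors and genes that Notch switches on directly were followed in splenic type 2 conventional dendritic cells (cDC2), antigen-presenting cells that prime helper T cells. The set held 10 of the 19938 genes measured: the receptors Notch1, Notch2 and Notch3, the DNA-binding factor Rbpj, and the targets Hes1, Dtx1, Nrarp, Hey1, Heyl and Ptcra. They were chosen by symbol from knowledge of the pathway, with earlier results of these data also known. Each is represented by the probe set (a group of array probes for one transcript) with the highest mean signal. The study sorted cDC2 from mouse spleens and measured their RNA on 10 one-colour arrays. WT mice, whose label names no Cre or floxed allele, were untreated (2 arrays) or were taken 24 hours after an intraperitoneal dose of 200000000 sheep red blood cells, a particulate antigen abbreviated SRBC (3 arrays). Notch2-11cKO mice, of genotype CD11c-Cre+ Notch2f/f, were untreated (2 arrays) or received the same SRBC dose for the same time (3 arrays). Cre in these mice acts in CD11c-expressing cells, which include other dendritic cells and some macrophages besides cDC2, and the labels give neither the part of Notch2 that Cre removes nor the age of the mice. Nothing says that the arrays of a group came from separate mice, so p-values measure only the spread between these samples, which may be technical.

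Notch receptors are cut in steps after binding a ligand on a neighbouring cell, first by an ADAM protease and then by gamma-secretase, and the freed intracellular domain enters the nucleus. There it joins Rbpj, which otherwise holds target genes in check, and the complex turns on genes such as Hes1 and Dtx1. In the spleen, Notch2 is known to be needed for the ESAM-high, CD4-expressing subset of cDC2 and for marginal zone B cells.

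Values are log2 intensities of the deposited normalized signal, and differences are on the same scale with the standard error of one limma fit to all 10 arrays. A gene was called where limma's p after Benjamini-Hochberg adjustment across the whole table was below 0.05. As a rough guide to unspecific signal, 95% of 1027 olfactory receptor genes had a mean log2 intensity below 4.80, and this value is called the background level here. Array medians lay between 29.5 and 31.7 on the linear scale, and with so few arrays their number sets the precision. Within groups arrays correlated at r = 0.972 to 0.984 across 9969 brighter genes (genes are not independent replicates), except for WT SRBC 1, at 0.929 and 0.928 with its fellow arrays, and Notch2-11cKO SRBC 3, at 0.947 and 0.936. All 12 cDC2 markers had means above the background level, among them Itgax, Sirpa, Zbtb46 and Irf4.

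Notch2 RNA was still detected in Notch2-11cKO cells at about the WT signal. Its log2 intensity was 8.11 and 8.14 in WT untreated, 8.37 and 8.17 in Notch2-11cKO untreated, 7.58, 7.09 and 7.09 in WT SRBC, and 7.96, 7.64 and 7.23 in Notch2-11cKO SRBC. The untreated arrays of Notch2-11cKO lay just above those of WT, and the SRBC arrays of the genotypes overlapped. The difference between untreated genotypes was 0.14 ± 0.26 with a 95% interval from -0.43 to 0.72 (limma adjusted p = 0.915). A probe set outside the removed part would still detect the remaining transcript, and these values are therefore no check of the genotype.

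In both genotypes every SRBC array lay below every untreated array for Notch2. The difference was -0.87 ± 0.24 in WT (interval -1.40 to -0.34, limma adjusted p = 0.0735) and -0.66 ± 0.24 in Notch2-11cKO (interval -1.19 to -0.13, limma adjusted p = 0.367), so neither passed. Without WT SRBC 1 the WT difference was -1.03 (limma adjusted p = 0.0238), and without Notch2-11cKO SRBC 3 its adjusted p was 0.0343. The WT difference passed in no other fit that left out 1 array, and over all such fits it ranged from -1.03 to -0.79. Immediate-early genes, which respond within minutes to stress and to tissue digestion, moved with Notch2. The mean log2 level of 22 such genes was 9.73 and 9.63 in WT untreated, 9.12, 8.61 and 8.64 in WT SRBC, 9.76 and 9.80 in Notch2-11cKO untreated, and 9.37, 9.06 and 8.62 in Notch2-11cKO SRBC. With that mean as a covariate, the Notch2 difference was -0.02 in WT (limma adjusted p = 0.983) and 0.07 in Notch2-11cKO (limma adjusted p = 0.921). That mean was itself lower on every SRBC array (8.61 to 9.37) than on every untreated array (9.63 to 9.80). A fit with it therefore cannot tell an effect of SRBC from one that goes with these genes, here or for the genes below.

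Notch1, the receptor best known from T cell development, had a low signal that was somewhat higher in Notch2-11cKO. The WT arrays read 5.62 and 5.36 untreated and 5.41, 5.20 and 5.41 after SRBC. The Notch2-11cKO arrays read 6.01 and 5.83 untreated and 5.74, 5.73 and 6.29 after SRBC. Within each treatment all Notch2-11cKO arrays lay above all WT arrays, as they did for 22.0% of all genes untreated and 9.96% after SRBC. The difference was 0.43 ± 0.21 without treatment (interval -0.04 to 0.90, limma adjusted p = 0.401) and 0.58 ± 0.17 after SRBC (interval 0.20 to 0.96, limma adjusted p = 0.0842), and neither was called. The SRBC difference within Notch2-11cKO was 0.00 ± 0.19, and within WT it was -0.15 ± 0.19.

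Notch3, a receptor studied mostly in vascular muscle cells, stayed within a narrow range, from 5.31 to 5.85 over the 10 arrays. Its group means were 5.36 in WT untreated, 5.69 in WT SRBC, 5.47 in Notch2-11cKO untreated and 5.59 in Notch2-11cKO SRBC, with SDs of 0.07, 0.18, 0.02 and 0.02 over 2, 3, 2 and 3 arrays. The largest of its differences was that of SRBC in WT, 0.32 ± 0.15 (limma adjusted p = 0.292), which was not called.

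**Figure D1:**
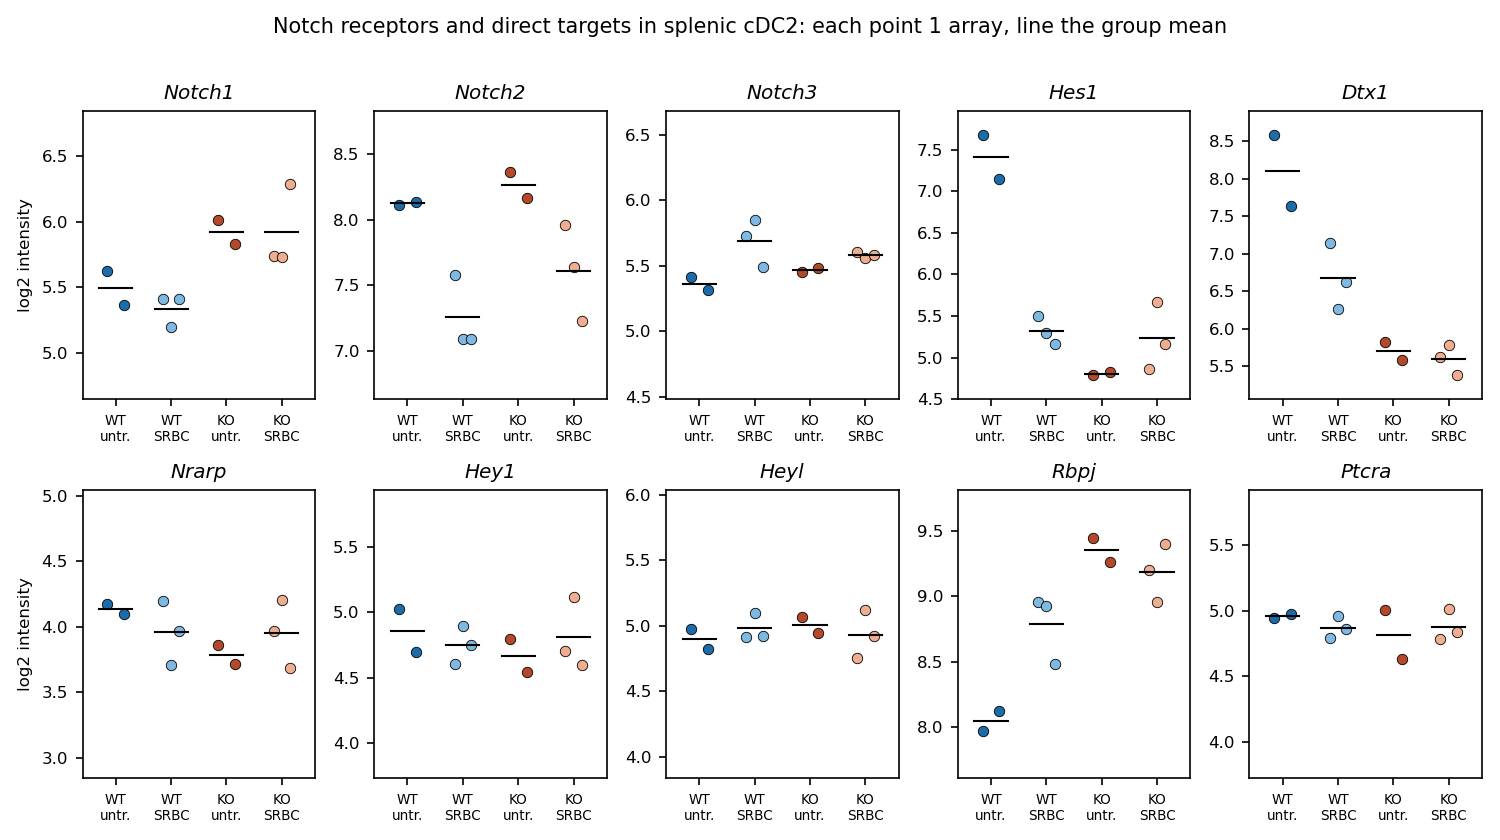
Log2 intensity (y axis) of the 10 genes in the 4 groups (x axis; untr., untreated; KO, Notch2-11cKO). Each point is 1 array and each line a group mean. Hes1 and Dtx1 were highest in WT untreated, and Rbpj was lowest there.

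Hes1, a basic helix-loop-helix repressor and the classic Notch target, was high in WT untreated cDC2 alone. The WT untreated arrays read 7.67 and 7.14, the WT SRBC arrays 5.50, 5.29 and 5.17, the Notch2-11cKO untreated arrays 4.78 and 4.83, and the Notch2-11cKO SRBC arrays 4.87, 5.67 and 5.16. Both WT untreated arrays stood above all 8 others, and the Notch2-11cKO untreated arrays lay at the background level, so the fold change between them may understate the change. Hes1 fell 6.06-fold in untreated Notch2-11cKO relative to WT (-2.60 ± 0.26, interval -3.16 to -2.03; limma adjusted p = 0.000143). It fell 4.25-fold after SRBC in WT (-2.09 ± 0.23, interval -2.60 to -1.57; limma adjusted p = 0.00108). After SRBC the genotypes overlapped and differed by -0.09 ± 0.21 (interval -0.55 to 0.37; limma adjusted p = 0.892). Within Notch2-11cKO the SRBC arrays were all higher than the untreated ones, by 0.42 ± 0.23 (interval -0.09 to 0.94; limma adjusted p = 0.604), which did not pass.

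Dtx1 encodes Deltex1, a ubiquitin ligase that Notch induces and that acts back on the receptor. It read 8.58 and 7.64 in WT untreated, 7.15, 6.27 and 6.63 in WT SRBC, 5.82 and 5.58 in Notch2-11cKO untreated, and 5.62, 5.79 and 5.38 in Notch2-11cKO SRBC. The 3 steps did not overlap: WT untreated above WT SRBC, and WT SRBC above both Notch2-11cKO groups, which overlapped each other. Dtx1 fell 5.32-fold in untreated Notch2-11cKO relative to WT (-2.41 ± 0.33, interval -3.14 to -1.69; limma adjusted p = 0.0012). The SRBC response in WT was a 2.70-fold fall (-1.43 ± 0.30, interval -2.09 to -0.77; limma adjusted p = 0.025). That call was lost without WT untreated 1 (-0.96, limma adjusted p = 0.291), WT SRBC 2 (-1.23, adjusted p = 0.0806) or WT SRBC 3 (-1.41, adjusted p = 0.0772), and with the immediate-early mean as a covariate (-0.68, adjusted p = 0.498), whereas Hes1 kept its call in each of these fits.

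After SRBC, Dtx1 was still 2.12-fold lower in Notch2-11cKO than in WT (-1.09 ± 0.27, interval -1.68 to -0.49; limma adjusted p = 0.0403). This call was near the threshold, and it ended in 7 of the 10 fits that left out 1 array: each SRBC array of Notch2-11cKO (limma adjusted p = 0.108, 0.0762 and 0.0937 without arrays 1, 2 and 3), both untreated Notch2-11cKO arrays (0.0621 and 0.0626), WT SRBC 1 (0.0866) and WT SRBC 3 (0.0938). Within Notch2-11cKO the difference of SRBC from untreated was -0.10 ± 0.30 (interval -0.77 to 0.56; limma adjusted p = 0.949).

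Rbpj, the DNA-binding partner of the Notch intracellular domain, ran the other way. It read 7.97 and 8.12 in WT untreated, 8.95, 8.92 and 8.49 in WT SRBC, 9.45 and 9.26 in Notch2-11cKO untreated, and 9.20, 8.96 and 9.40 in Notch2-11cKO SRBC. Both WT untreated arrays lay below all others, and the lowest Notch2-11cKO SRBC array (8.96) lay just above the highest WT SRBC array (8.95). Rbpj was 2.47-fold higher in untreated Notch2-11cKO than in WT (1.30 ± 0.23, interval 0.81 to 1.80; limma adjusted p = 0.0057). The call was lost without WT untreated 1 (1.23, limma adjusted p = 0.0742) and without Notch2-11cKO untreated 1 (1.21, adjusted p = 0.071). After SRBC the genotypes differed by 0.40 ± 0.18 (interval -0.01 to 0.80; limma adjusted p = 0.299), and SRBC in WT gave 0.74 ± 0.21 (interval 0.29 to 1.19; limma adjusted p = 0.0765), neither of which passed.

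A second Rbpj probe set, which lists 1 transcript accession against 7 for the one used, read lower, with group means of 3.24 in WT untreated, 3.38 in WT SRBC, 3.10 in Notch2-11cKO untreated and 3.18 in Notch2-11cKO SRBC. All of these lie below the background level. It showed no difference past the threshold between untreated genotypes (-0.14 ± 0.16; limma adjusted p = 0.860 over all probe sets). With the mean of both probe sets the Rbpj difference was 0.58 (limma adjusted p = 0.139).

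Because Rbpj binds DNA at a short motif with the core TGGGAA, the letters were looked for in the bases before the start sites of the 10 genes, in both orientations (TTCCCA on the other strand). RefSeq windows on GRCm38.p6 were at hand for 7 genes (8 windows, with 2 for Rbpj), each cut to the 250 bases upstream of the start; Hes1, Hey1 and Heyl had no entry. The core was found upstream of Rbpj and Ptcra, shown because they were the only ones of the 7 with a match, and in none of the windows of Notch1, Notch2, Notch3, Dtx1 and Nrarp. Capitals mark the core in either orientation. The Rbpj window shown is chr5:53590096-53590345, plus strand, and lies inside the annotated gene, which begins further upstream. The Ptcra window is chr17:46763713-46763962, minus strand, outside the annotated gene.
Rbpj: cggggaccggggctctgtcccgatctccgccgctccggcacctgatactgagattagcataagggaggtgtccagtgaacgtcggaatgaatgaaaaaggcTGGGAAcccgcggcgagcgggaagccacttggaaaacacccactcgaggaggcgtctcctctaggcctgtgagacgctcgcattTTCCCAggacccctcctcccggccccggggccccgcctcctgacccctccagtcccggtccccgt
Ptcra: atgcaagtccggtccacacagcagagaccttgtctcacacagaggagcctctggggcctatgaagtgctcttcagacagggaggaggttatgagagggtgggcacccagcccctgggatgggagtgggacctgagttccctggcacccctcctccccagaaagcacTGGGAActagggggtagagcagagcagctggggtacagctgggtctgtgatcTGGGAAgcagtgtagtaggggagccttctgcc
In the Rbpj window shown the first match begins 149 bases before the start site and the second, in the opposite orientation, 65 bases before it. The other Rbpj window, chr5:53590236-53590485, overlaps it and has a start site further downstream. It holds only that same TTCCCA, 205 bases before its own start. In the Ptcra window the matches begin 84 and 32 bases before the start. The core is short and common: 21.6% of 32851 windows of this length held it. The longer form GTGGGAA, which contains the core and was in 5.42% of windows, was in none of these. These matches describe letters, not binding.

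Nrarp, Hey1, Heyl and Ptcra had signals at or near the background level in every group. Nrarp, a small ankyrin-repeat protein that limits Notch signalling, read between 3.68 and 4.20 and was above the background level on 0 of 10 arrays. It was lower on both Notch2-11cKO untreated arrays (3.86 and 3.72) than on both WT untreated arrays (4.17 and 4.09), by -0.35 ± 0.19 (interval -0.76 to 0.06; limma adjusted p = 0.462), which did not pass. Hey1, a repressor related to Hes1, was above the level on 3 arrays and had group means from 4.67 to 4.86. Heyl, of the same family, was above it on 9 arrays with group means from 4.90 to 5.01. Ptcra, which encodes the pre-T cell receptor alpha chain and is a Notch target in thymocytes, was above it on 7 arrays with group means from 4.82 to 4.96. At this signal a difference in these 4 genes may not be detectable.

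Of the 10 genes, 3 were called between untreated genotypes (Hes1 and Dtx1 lower, Rbpj higher), while 5.11% of all genes were called in that comparison, 2.95% higher and 2.16% lower. Between genotypes after SRBC 1 was called (Dtx1), against 5.32% of all genes, 3.36% higher and 1.96% lower. In the WT response to SRBC 2 were called (Hes1 and Dtx1, both lower), against 3.79% of all genes, 1.82% higher and 1.97% lower. In the Notch2-11cKO response none was called by limma, where 0.306% of all genes were called, 0.14% higher and 0.166% lower. There 1 of the 10 (Notch2) had an unadjusted limma p below 0.05, as did 1994 of all 19938 genes. The median difference of the 10 genes was -0.02, 0.00, -0.13 and 0.03 in these comparisons, beside -0.02, -0.02, 0.02 and 0.03 for all genes. The comparisons share arrays, since each group serves in more than one of them.

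Groups of 2 and 3 arrays separate easily. Between untreated genotypes, Notch1, Notch2, Notch3 and Rbpj were higher on every Notch2-11cKO array, as were 22.0% of all genes, and Hes1, Dtx1 and Nrarp were lower on every one, as were 26.8%. After SRBC, Notch1 and Rbpj were higher without overlap (9.96% of all genes) and Dtx1 lower (10.4%). In the WT response Notch3 and Rbpj were higher without overlap (17.8%) and Notch2, Hes1 and Dtx1 lower (15.7%). In the Notch2-11cKO response Notch3 and Hes1 were higher without overlap (16.1%) and Notch2 lower (12.2%).

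The interaction asked whether the SRBC response differed between genotypes. Hes1 was 1 of 4 genes called (0.0201% of all genes, with 0.01% in each direction). It changed by -2.09 in WT and by 0.42 in Notch2-11cKO, and the latter was not called. Its untreated Notch2-11cKO arrays lay at the background level, where a fall could hardly be seen. The Notch2-11cKO response of Hes1 minus its WT response was 2.51 ± 0.33 (interval 1.78 to 3.24; limma adjusted p = 0.0486). Its adjusted p ranged from 0.00288 to 0.441 over 22 alternatives. It passed without WT SRBC 1 (adjusted p = 0.0239) or Notch2-11cKO SRBC 1 (0.038) and not without any other single array, namely WT untreated 1 (0.441) or 2 (0.0617), WT SRBC 2 (0.115) or 3 (0.121), Notch2-11cKO untreated 1 (0.242) or 2 (0.335), and Notch2-11cKO SRBC 2 (0.0618) or 3 (0.0538). The difference itself stayed between 2.25 and 2.78 in those fits. Dtx1 had 1.33 ± 0.43 (interval 0.39 to 2.26; limma adjusted p = 0.566) and Rbpj -0.91 ± 0.29 (interval -1.55 to -0.27; limma adjusted p = 0.566), and neither was called. Without both arrays that stood apart Dtx1 passed as well (1.67, limma adjusted p = 0.039). That fit called 604 of all genes in the interaction, against 4 with all arrays, and the arrays left out were picked by their values in these same data. The median interaction of the 10 genes was 0.18, beside 0.01 for all genes.

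Leaving out both arrays that stood apart also changed other counts. The members called were then 3 between untreated genotypes, 1 between genotypes after SRBC, 4 in the WT response, 0 in the Notch2-11cKO response and 2 in the interaction. In the same order 1996, 2364, 2300, 398 and 604 of all 19938 genes were then called. With all arrays these numbers were 1019, 1061, 756, 61 and 4, so calls rose over the whole table and not for the members alone. After SRBC the gene called was then Notch2, higher in Notch2-11cKO (0.71, limma adjusted p = 0.0173), while Dtx1 was not called (-0.74, adjusted p = 0.106). In the WT response Notch2 (-1.03, adjusted p = 0.00205) and Rbpj (0.66, adjusted p = 0.0383) joined Hes1 and Dtx1.

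**Figure D2:**
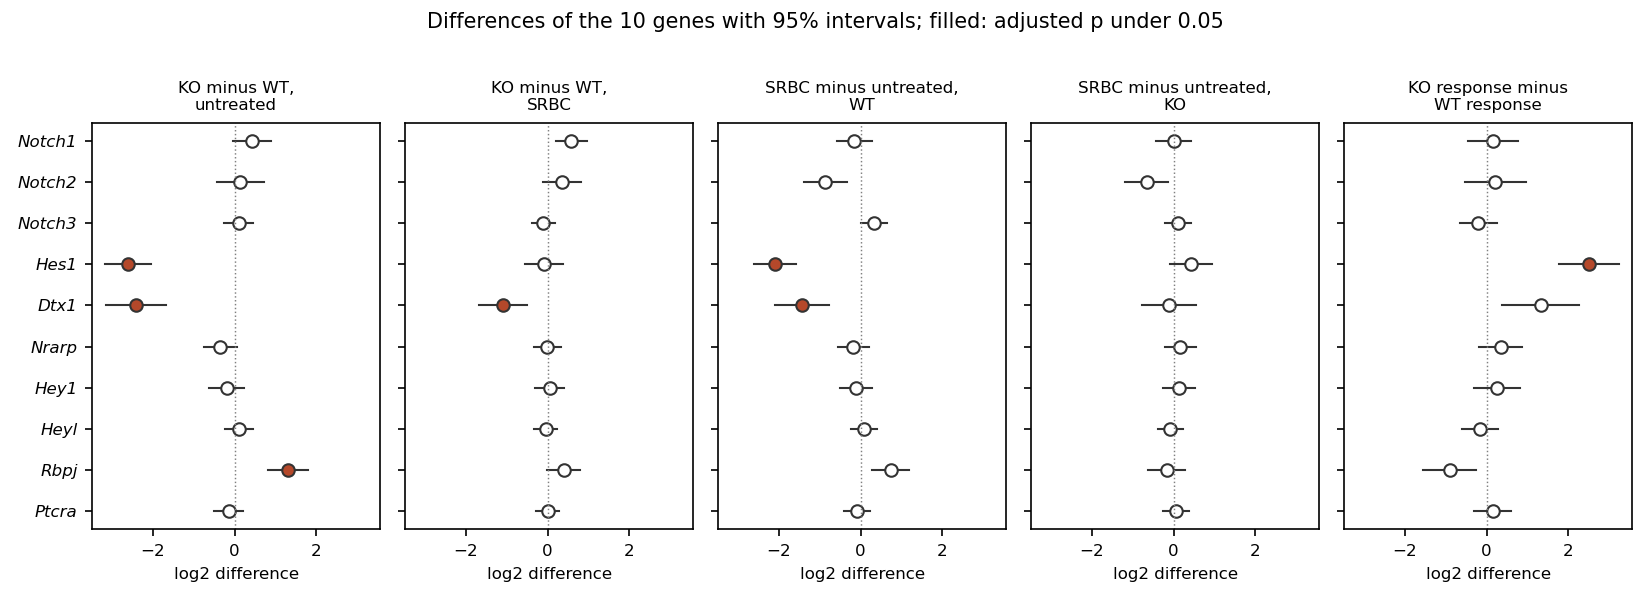
Log2 differences (x axis) of the 10 genes (y axis) in the 5 comparisons, with 95% intervals from the limma fit; filled points have an adjusted p under 0.05 and KO is Notch2-11cKO. Hes1 and Dtx1 lie left of 0 between untreated genotypes and in the WT response, and Hes1 lies right of 0 in the interaction (2.51).

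The order of the group means summarises each moving member. For Hes1 it ran WT untreated (7.41), WT SRBC (5.32), Notch2-11cKO SRBC (5.23) and Notch2-11cKO untreated (4.81), with only the first step past the threshold. For Dtx1 it ran WT untreated (8.11), WT SRBC (6.68), Notch2-11cKO untreated (5.70) and Notch2-11cKO SRBC (5.59), and the last pair did not differ past the threshold. For Rbpj the order was Notch2-11cKO untreated (9.35), Notch2-11cKO SRBC (9.18), WT SRBC (8.79) and WT untreated (8.05), in which no neighbouring pair was called.

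Genes that mark subsets and other cells moved with Hes1 and Dtx1. Each array averages the sorted cells, so fewer cells of a type and less RNA per cell cannot be told apart. The summed intensity of 5 genes that define ESAM-high cDC2 (Esam, Clec4a4, Cd4, Tbx21 and Jaml) was 845 to 878 in WT untreated, 383 to 454 in WT SRBC, 274 to 340 in Notch2-11cKO untreated and 200 to 255 in Notch2-11cKO SRBC. Between untreated genotypes 4 of the 5 fell, among them Clec4a4 (-4.09, limma adjusted p = 5.84e-05) and Esam (-1.84, adjusted p = 0.00664), and 2 of the 5 fell in the WT response. Over all genes 2.16% and 1.97% were called lower in these comparisons. The part of a changed subset mix in the Hes1 and Dtx1 differences was not tested.

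Marginal zone and other B cells also use Notch2 and its targets. Of 11 B cell markers measured 6 had means below the background level (Cd79a, Ms4a1, Pax5, Ebf1, Fcer2a and Fcrla), and of 7 measured markers of marginal zone B cells 2 did (Cr2 and S1pr3). The summed intensity of the B cell markers was 690 to 733 in WT untreated, 396 to 426 in WT SRBC, 485 to 610 in Notch2-11cKO untreated and 410 to 442 in Notch2-11cKO SRBC. That of the marginal zone B cell markers was 572 to 625, 403 to 438, 535 to 564 and 508 to 661 in the same order of groups. Between untreated genotypes Cd22 (-2.68, limma adjusted p = 2.45e-05), Bank1 (-2.13, adjusted p = 0.000298) and Ms4a1 (-1.39, adjusted p = 0.0139) fell, and Blnk, an adaptor also used by myeloid cells, rose (3.67, adjusted p = 1.59e-05). Macrophage and monocyte markers were higher in untreated Notch2-11cKO (8 of 12 and 6 of 9 rose, none fell), as Rbpj was; their summed intensities were 838 to 910 and 1339 to 1625 in WT untreated against 2519 to 3220 and 10655 to 12274 in Notch2-11cKO untreated. Macrophage markers were also higher after SRBC in WT (4 of 12 rose, with sums of 1560 to 2116), where the Rbpj difference of 0.74 was not called. Of the 9 monocyte markers 0 rose and 0 fell there, with sums of 1363 to 1706. Between genotypes after SRBC, 7 of 12 macrophage and 6 of 9 monocyte markers were higher in Notch2-11cKO, against 3.36% of all genes. The Rbpj difference of 0.40 in that comparison was not called. Of 9 cDC1 markers 4 rose and 1 fell between untreated genotypes, and 2 of 8 plasmacytoid dendritic cell markers rose (sums of 449 to 492 in WT untreated and 950 to 953 in Notch2-11cKO untreated). Erythroid marker sums were 85.6 to 96.8 in WT untreated and 241 to 263 in WT SRBC, and between 83.5 and 87.6 in both Notch2-11cKO groups. Only 4 of 7 listed erythroid genes were measured, and 2 of them (Klf1 and Car1) had means below the background level. Another was Car2, itself called in the interaction. Its group means were 5.30 in WT untreated, 7.43 in WT SRBC, 4.71 in Notch2-11cKO untreated and 4.58 in Notch2-11cKO SRBC, so the higher sum in WT SRBC includes the rise of Car2. Heat shock genes moved with SRBC in both genotypes: 11 of 15 fell in WT and 2 of 15 in Notch2-11cKO, where the mean log2 level was 8.94 and 9.34 untreated and 8.42, 8.49 and 8.21 after SRBC. Beside these marker counts, 2.95% of all genes were called higher and 2.16% lower between untreated genotypes. In the WT response the shares were 1.82% and 1.97%, and in the Notch2-11cKO response 0.14% and 0.166%. The part of these cells and of heat shock in the Notch gene differences was not tested.

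The rest of the pathway was read from 5 further lists with 73 genes, of which 68 were measured. Between untreated genotypes 5 rose and 2 fell, after SRBC 3 were higher and 1 lower in Notch2-11cKO, in the WT response 2 rose and 3 fell, and in the Notch2-11cKO response 1 rose. The shares called over all genes were 5.11%, 5.32%, 3.79% and 0.306%, so the count after SRBC in particular is near that of genes at large. None was called in the interaction. The median difference of the 68 genes was -0.01, 0.02, -0.09 and -0.02 in the first 4 comparisons. None of the 9 genes for ligands and other receptors (Notch4, Dll1, Dll3, Dll4, Jag1, Jag2, Dlk1, Dlk2 and Dner) was called in any comparison. Dll1 and Dll3, ligands of the Delta type, were above the background level on 0 of 10 arrays, and Dll4 and Notch4 on all 10.

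Of 13 measured genes that process the receptor 4 rose in untreated Notch2-11cKO and none fell (over all genes 2.95% were higher and 2.16% lower), with a list median of 0.41 beside -0.02 for all genes. Psen2, a catalytic subunit of gamma-secretase, read 5.63 and 5.24 in WT untreated and 6.35 and 6.44 in Notch2-11cKO untreated, a rise of 0.97 ± 0.20 (limma adjusted p = 0.0141). Furin, which cuts the receptor during its maturation, rose by 1.04 ± 0.24 (adjusted p = 0.0287), and Poglut1, which adds glucose to the receptor's EGF repeats, by 1.29 ± 0.30 (adjusted p = 0.031). Adam17, a shedding protease, rose by 0.86 ± 0.22 (adjusted p = 0.0459). These 4 calls leaned on the untreated arrays: those of Furin, Poglut1 and Adam17 were lost without any 1 of the 4, and that of Psen2 without WT untreated 2 or either Notch2-11cKO untreated array. Adam17 was also lost without WT SRBC 2, WT SRBC 3 or Notch2-11cKO SRBC 1, with the replicate number as a block (adjusted p = 0.0539), with every probe set tested by ID (0.0545) and with arrays centred on their medians (0.0602). After SRBC, Furin (0.92 ± 0.20, adjusted p = 0.0191) and Psen2 (0.66 ± 0.16, adjusted p = 0.0362) were also higher in Notch2-11cKO, and of single arrays left out WT SRBC 2 ended the Furin call, while the Psen2 call held in 3 of 10 such fits. Poglut1 rose with SRBC in WT (1.15 ± 0.28, adjusted p = 0.0437), where WT SRBC 1 read 7.39 and the other arrays 6.36 and 6.37, and the call held in 3 of 10 fits that left out 1 array. With the immediate-early mean as a covariate the rise was 1.74 (adjusted p = 0.0742).

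**Figure D3:**
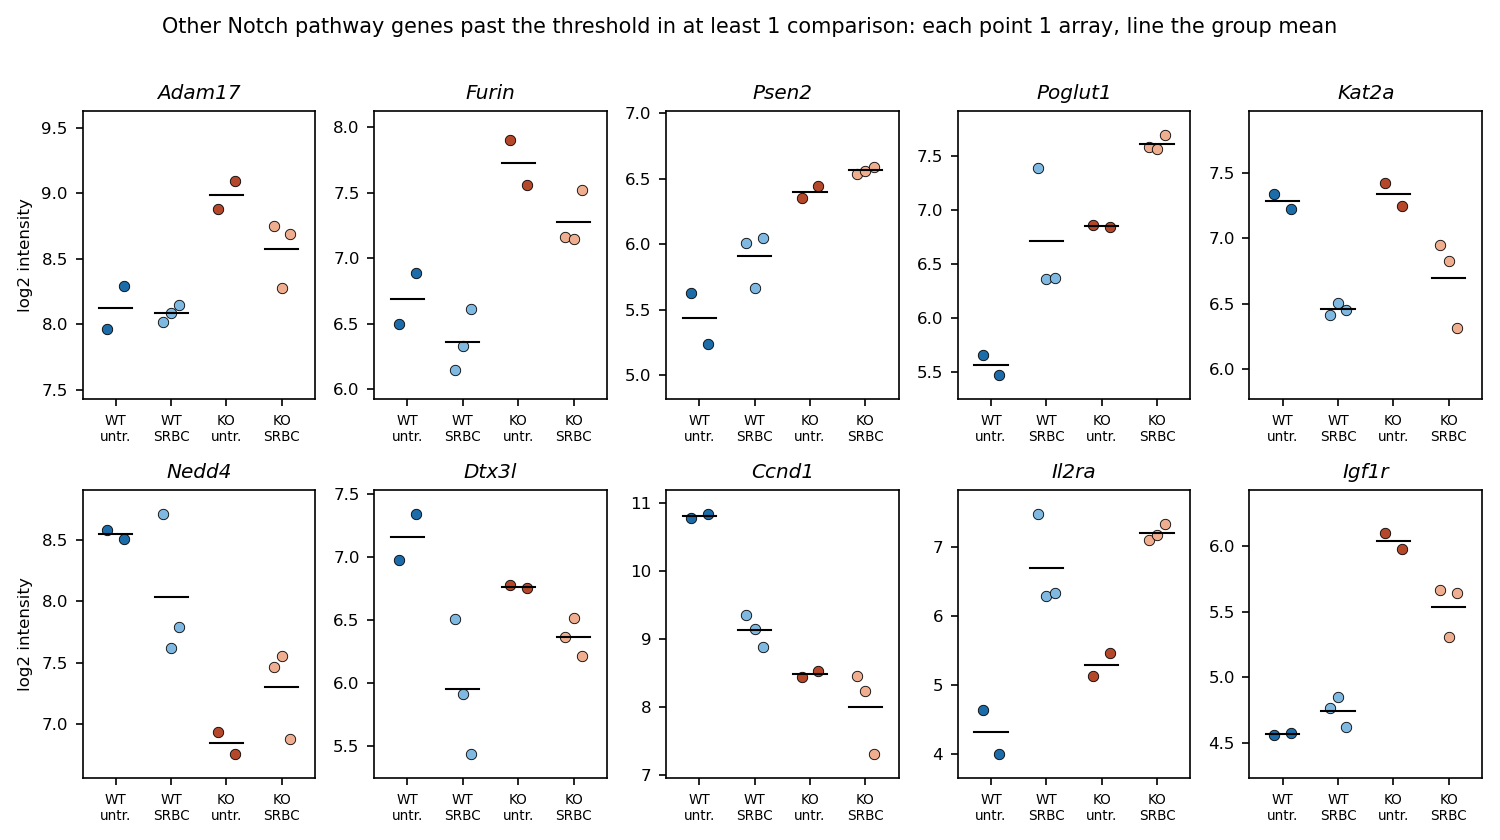
Log2 intensity (y axis) of the 10 other Notch pathway genes called in at least 1 comparison, in the 4 groups (x axis; KO, Notch2-11cKO); points are arrays and lines group means. Ccnd1 was highest in WT untreated, and Igf1r and Psen2 were higher in both Notch2-11cKO groups than in the WT groups.

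Among 13 other reported Notch targets, Ccnd1 and Igf1r moved in opposite directions. Ccnd1, encoding the G1 cyclin D1, read 10.77 and 10.83 in WT untreated, 9.35, 9.14 and 8.89 in WT SRBC, 8.44 and 8.53 in Notch2-11cKO untreated, and 8.45, 8.24 and 7.31 in Notch2-11cKO SRBC. Within each treatment every WT array stood above every Notch2-11cKO array, as was so for 26.8% of all genes untreated and 10.4% after SRBC. Ccnd1 fell between untreated genotypes (-2.31 ± 0.32, limma adjusted p = 0.0013), between genotypes after SRBC (-1.13 ± 0.26, adjusted p = 0.0287) and with SRBC in WT (-1.67 ± 0.29, adjusted p = 0.0102). The last call was lost without WT untreated 1 or 2, and the middle one without WT untreated 1 or 2 or WT SRBC 1 or 2. With the immediate-early mean as a covariate the Ccnd1 difference of SRBC in WT was -0.59 (adjusted p = 0.388). Igf1r, a growth factor receptor, read 4.56 and 4.57 in WT untreated and 6.10 and 5.98 in Notch2-11cKO untreated, a rise of 1.48 ± 0.16 (adjusted p = 0.0003), and it was 0.79 ± 0.13 higher after SRBC (adjusted p = 0.0051). Both Igf1r calls held with any single array left out. Its WT untreated arrays and 2 of its WT SRBC arrays (4.77 and 4.62) lay below the background level, so these differences may understate the change. Il2ra, the interleukin-2 receptor alpha chain, was called in both SRBC responses, rising by 2.38 ± 0.33 in WT (adjusted p = 0.003), from untreated arrays that read at most 4.63 and lay below the background level, and by 1.91 ± 0.33 in Notch2-11cKO (adjusted p = 0.0416). The WT call was lost without WT untreated 2, and the Notch2-11cKO call in 8 of the 10 fits that left out 1 array.

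Modulators and nuclear partners gave single calls. Nedd4, a ubiquitin ligase that acts on the receptor, fell in untreated Notch2-11cKO (-1.71 ± 0.34, limma adjusted p = 0.0132), from 8.58 and 8.51 to 6.93 and 6.75. Dtx3l, a relative of Dtx1 whose known role is in the DNA damage and interferon responses, fell with SRBC in WT (-1.21 ± 0.27, adjusted p = 0.0322). The acetyltransferase gene Kat2a fell in the same comparison (-0.83 ± 0.20, adjusted p = 0.0479), the only 1 of 19 measured nuclear partners called in any comparison. In the WT response 1 of these 19 and 1 of 14 modulators were called, beside 3.79% of all genes. Between untreated genotypes 1 of 14 modulators was called, beside 5.11% of all genes. These counts are near what genes at large give. The Dtx3l and Kat2a calls were lost in 7 and 9 of the 10 fits that left out 1 array, that of Kat2a also with the replicate number as a block (adjusted p = 0.0789), and that of Nedd4 without any 1 of the 4 untreated arrays. With the immediate-early mean as a covariate Dtx3l had -0.59 (adjusted p = 0.523) and Kat2a -0.38 (adjusted p = 0.591).

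The genes most like each moving member over the 10 arrays were taken from 2017 genes whose group means spanned at least 1 log2 unit. The correlations are descriptions: the points share arrays and normalization, and they fall into 4 groups. Hes1 was most like Slc6a12, a betaine transporter (r = 0.960), Stk32c (0.958), Rab37 (0.939), Pou2f2, the transcription factor Oct-2 (0.935), and Cacna1e, a calcium channel subunit (0.926). Slc6a12 had group means of 7.73 in WT untreated, 5.63 in WT SRBC, 5.56 in Notch2-11cKO untreated and 5.36 in Notch2-11cKO SRBC, so it too was high in WT untreated alone. Dtx1 was most like Cdhr3 (0.987), Dab2ip, a Ras GTPase-activating protein (0.984), Spns3 (0.980), Ripor2 (0.974) and Ap1s3, an adaptor subunit of vesicle coats (0.967). Spns3 stepped down as Dtx1 did, from 7.11 to 5.76, 4.98 and 4.94 in the same order of groups.

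Rbpj was most like Ccl22, a chemokine of mature dendritic cells (r = 0.944), H2-M2 (0.939), Nfkbia, the NF-kB inhibitor (0.932), Clec7a, the beta-glucan receptor (0.931), and Aldh1a2, which makes retinoic acid (0.927). Ccl22 spanned far more than Rbpj did, from 5.60 in WT untreated to 8.49 in WT SRBC, 10.08 in Notch2-11cKO untreated and 10.53 in Notch2-11cKO SRBC. Notch2 was most like the immediate-early gene Fos (0.985), with Vsir, an inhibitory receptor of myeloid cells (0.971), the phosphate transporter Slc20a1 (0.971), choline kinase Chka (0.969) and Nfkbid (0.966). Fos had group means of 10.13 in WT untreated, 8.05 in WT SRBC, 10.33 in Notch2-11cKO untreated and 8.69 in Notch2-11cKO SRBC. Among the members themselves, Hes1 and Dtx1 correlated at r = 0.89, and Rbpj at -0.89 with Hes1 and -0.90 with Dtx1, over 10 arrays. Notch2 correlated at 0.26 with Hes1 and 0.18 with Dtx1.

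**Figure D4:**
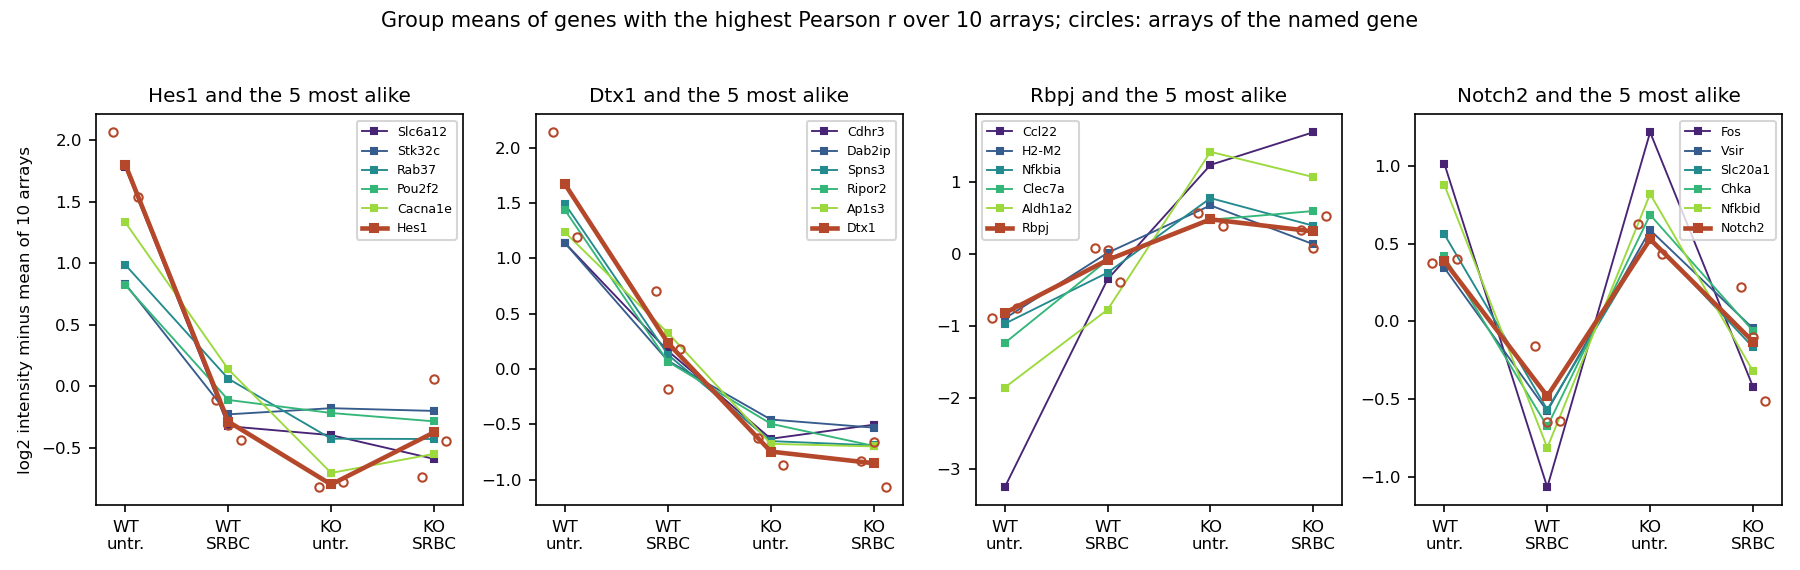
Group means of log2 intensity minus the mean of the 10 arrays (y axis) in the 4 groups (x axis; KO, Notch2-11cKO), for Hes1, Dtx1, Rbpj and Notch2 (thick line, arrays as circles) and the 5 genes most like each. Hes1, Dtx1 and the genes like them peak in WT untreated, whereas Notch2 and the genes like it are low in both SRBC groups.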

How the data were processed

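RNA of sorted splenic cDC2 was labelled with the Ambion WT Expression kit, per the labels' protocols, and measured on 10 arrays. The deposited values are linear intensities with similar array medians, taken as normalized by the authors; the method is not stated in the labels. Log2 values of 28853 probe sets were computed from these deposited intensities. Of these, 21789 named 1 gene, 1621 several and 5443 none, and the brightest probe set of each of 19938 genes was used (of several, for 999 genes), dim genes included. A limma fit (lmFit, eBayes with trend; 6 residual degrees of freedom) with a mean per group gave 5 two-sided comparisons, adjusted by Benjamini-Hochberg over all genes at a threshold of 0.05, and all adjusted p-values in the text are limma's. The fit was tested on simulated data. Named were all 10 members, other pathway genes past the threshold (up to 4 per list and comparison) and the 5 genes most like each moving member; marker genes stand beside the results they touch. Clone, predicted, olfactory, antigen receptor, small RNA, Y-linked and Xist genes did not enter the likeness ranking. The members, lists and alternatives were chosen with earlier results of these data known. Listed pathway genes without a value are not reported here. R 4.3.3, limma 3.58.1, Python 3.11.15, pandas 2.3.3, NumPy 2.4.6 and matplotlib 3.10.9 were used.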

Additional observations from a re-analysis of the deposited data

Results flagged for a closer look

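The response of Hes1 to SRBC differed between the genotypes by the interaction test: it was -2.09 ± 0.23 in WT and 0.42 ± 0.23 in Notch2-11cKO, a difference of 2.51 ± 0.33 (limma adjusted p = 0.0486; range 0.00288 to 0.441 over 22 alternatives). The Hes1 signal of untreated Notch2-11cKO (4.78 and 4.83) was at the background level of 4.80.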

How the results depend on the processing

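Of 67 single-gene values 24 were called. Over 23 alternative settings their 1511 recomputed values kept direction and call in 1336, lost the call in 121, gained it in 13 and changed sign in 41, and none of those 41 was a called value. The untreated genotype differences of Hes1 and Dtx1 and the WT response of Hes1 kept their calls in all 23. Group sizes of 2 and 3 limit every comparison, and signals near the background level limit Nrarp, Hey1, Heyl and Ptcra, and Hes1, Igf1r and Il2ra in the groups where they are lowest. Where a call or count changed, the cause was not tested.

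Members called between genotypes after SRBC were 0 with every probe set by ID, with 16 added before log2 and with array weights, and 2 with the replicate block or the immediate-early covariate (1 as reported). In the WT response they were 4 among genes above the median level, with array weights and without both arrays that stood apart, and 1 with only the groups compared or the covariate (2 as reported). In the interaction they were 0 with every probe set by ID, among genes above the median level, with quantile normalization and with the replicate block, and 2 without both arrays (1 as reported). With 1 array left out the members called ranged from 2 to 3 between untreated genotypes, 0 to 1 after SRBC, 1 to 3 in the WT response, 0 to 0 in the Notch2-11cKO response and 0 to 1 in the interaction.

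Over all genes, calls between untreated genotypes (1019) were 1822 with array weights, 1966 with only the groups compared, 1555 with the covariate and 1996 without both arrays. After SRBC (1061) they were 1615 with array weights, 627 with only the groups compared and 2364 without both arrays. In the WT response (756) they were 1886 with array weights, 303 with the covariate and 2300 without both arrays. In the Notch2-11cKO response (61) they were 37 with every probe set by ID, 103 without the trend, 267 with array weights, 23 with only the groups compared, 37 with the covariate and 398 without both arrays. In the interaction (4) they were 2 among genes above the median level, 7 without the trend, 63 with array weights, 12 with the covariate and 604 without both arrays. With 1 array left out the ranges were 418 to 1390, 649 to 1256, 101 to 1331, 2 to 183 and 0 to 44.

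Sign changes, all in values not called, were as follows. After SRBC between genotypes, without both arrays Hes1 was 0.038, Nrarp 0.25 and Ptcra -0.013; with array weights Nrarp was 0.10, Hey1 -5.0e-05 and Ptcra -0.042; Nrarp was 0.023 with quantile normalization and 0.0039 with centring. With the covariate, Nrarp was 0.30 and Heyl -0.079 in the WT response, and Notch1 -0.28, Notch2 0.072, Dtx1 0.54 and Ptcra -0.042 in the Notch2-11cKO response. There Notch1 was also -0.032 with centring, -0.075 with array weights, -0.11 with the replicate block and -0.18 without both arrays, where Dtx1 was 0.0036. With 1 array left out, ranges that crossed 0 were, between untreated genotypes, Ptcra -0.33 to 0.044; after SRBC, Hes1 -0.31 to 0.094, Nrarp -0.13 to 0.13, Hey1 -0.10 to 0.16, Heyl -0.14 to 0.040 and Ptcra -0.061 to 0.052; in the WT response, Hey1 -0.28 to 0.056; in the Notch2-11cKO response, Notch1 -0.18 to 0.095, Dtx1 -0.23 to 0.016, Hey1 -0.016 to 0.26, Heyl -0.17 to 0.013 and Ptcra -0.13 to 0.25; in the interaction, Notch1 -0.030 to 0.29 and Ptcra -0.038 to 0.34.

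Replicate numbers were not taken to pair the arrays, and the values do not decide whether they do. Deviations of same-numbered arrays correlated above 0.1 in 7 of 13 pairs of arrays from different groups (from -0.22 to 0.48, median 0.10), and of differently numbered arrays in 7 of 24 (from -0.51 to 0.41, median -0.10). In a group of 2 arrays the deviations mirror each other, so these pairs are not independent. Between the SRBC groups same-numbered arrays correlated at 0.48, -0.22 and 0.40 for numbers 1, 2 and 3. With the replicate block Notch1 passed between genotypes after SRBC (0.58, limma adjusted p = 0.0413) beside Dtx1. Of the named calls it ended those of Adam17 between untreated genotypes, Kat2a in the WT response and Hes1 in the interaction.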
